A study of Homo sapiens with 8 samples.

Results

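The 50 genes described here carry out or control DNA replication, and they were measured in KG1a cells, an established human acute myeloid leukemia line of immature, CD34-positive phenotype. They were chosen by name from the steps of copying DNA, by a rule that uses no measured value but was written with earlier results of these data known, and all 50 were found among the 25168 genes of the count table. All 50 also passed the filter on low counts, which kept 12843 genes. RNA was sequenced from 4 groups of 2 libraries each. KG1a cells received TAK-981 at 5 µM together with venetoclax at 1 µM (called the combination here), TAK-981 at 5 µM alone, venetoclax at 1 µM alone, or the vehicle DMSO, each for 48 h. TAK-981 inhibits SUMO activation, the first step in attaching the small protein SUMO to other proteins, and venetoclax blocks BCL2, a protein that keeps cells from apoptosis. All groups come from 1 cell line, and whether replicate libraries came from separate cultures is not stated, so each p-value rests on a spread that could be technical only.

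DNA is copied in an ordered series of steps. The origin recognition complex (ORC) marks start sites in G1, and CDC6 and CDT1 load the ring-shaped MCM2-7 helicase onto them, which is called licensing. CDC45 and the GINS complex then turn the helicase on, polymerase alpha with primase starts each strand, and the polymerases delta and epsilon extend it while held to DNA by the PCNA clamp. Many of these genes are transcribed at the G1 to S transition by E2F factors, which cyclin E and its kinase free from the retinoblastoma protein, so their RNA is known to be high in dividing cells and low in resting ones. In bulk RNA, fewer cells in S phase and less RNA per cell cannot be told apart.

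The promoters of these genes are shown first because E2F sites are their best known shared feature. Whether these sites relate to the changes with either drug was not tested. RefSeq promoter windows on GRCh38.p14, from 250 bases before to 50 bases after a gene's start, were listed for 43 of the 50 members, and the first listed window was used for the 8 members that have several. MCM4, MCM5, GINS4, POLD3, RPA2, RPA3 and CCNE2 had no entry. Each window was searched on both strands for an E2F core of 8 letters (TTTCCCGC, TTTCGCGC, TTTGCCGC or TTTGGCGC) and for the CCAAT box, the core bound by NF-Y. The 5 windows below are those of the genes with the smallest p for TAK-981 against vehicle among genes with both motifs (2 genes), with the E2F core alone, with the CCAAT box alone and with neither. Capitals mark matches to either motif, and a match on the opposite strand appears as its reverse complement. GINS1 lies at chr20:25407423-25407722, plus strand, MCM6 at chr2:135876394-135876693, minus strand, TYMS at chr18:657403-657702, plus strand, PRIM1 at chr12:56752274-56752573, minus strand, and CHAF1B at chr21:36385142-36385441, plus strand.
GINS1: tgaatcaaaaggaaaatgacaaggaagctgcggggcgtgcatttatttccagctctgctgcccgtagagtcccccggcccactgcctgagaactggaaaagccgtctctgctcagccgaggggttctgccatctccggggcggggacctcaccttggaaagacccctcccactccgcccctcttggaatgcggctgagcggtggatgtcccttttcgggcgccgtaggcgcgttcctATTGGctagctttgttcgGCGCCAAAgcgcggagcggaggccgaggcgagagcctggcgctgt
MCM6: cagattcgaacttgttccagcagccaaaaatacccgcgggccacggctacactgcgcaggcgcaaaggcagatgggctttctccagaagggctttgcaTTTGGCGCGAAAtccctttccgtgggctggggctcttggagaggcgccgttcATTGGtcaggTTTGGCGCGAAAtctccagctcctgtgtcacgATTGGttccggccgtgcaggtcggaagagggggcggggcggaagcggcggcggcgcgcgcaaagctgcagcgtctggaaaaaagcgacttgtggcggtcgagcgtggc
TYMS: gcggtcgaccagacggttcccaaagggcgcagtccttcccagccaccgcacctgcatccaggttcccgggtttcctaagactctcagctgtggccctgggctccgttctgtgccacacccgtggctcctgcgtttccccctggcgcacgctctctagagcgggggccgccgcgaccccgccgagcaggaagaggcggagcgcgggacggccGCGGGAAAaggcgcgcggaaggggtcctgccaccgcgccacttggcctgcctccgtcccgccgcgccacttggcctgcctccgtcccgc
PRIM1: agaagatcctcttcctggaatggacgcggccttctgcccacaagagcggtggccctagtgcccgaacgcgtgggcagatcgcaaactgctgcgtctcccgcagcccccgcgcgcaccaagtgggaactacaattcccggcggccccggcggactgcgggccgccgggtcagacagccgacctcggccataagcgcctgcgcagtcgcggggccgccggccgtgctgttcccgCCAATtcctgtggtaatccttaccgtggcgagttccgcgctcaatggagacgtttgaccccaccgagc
CHAF1B: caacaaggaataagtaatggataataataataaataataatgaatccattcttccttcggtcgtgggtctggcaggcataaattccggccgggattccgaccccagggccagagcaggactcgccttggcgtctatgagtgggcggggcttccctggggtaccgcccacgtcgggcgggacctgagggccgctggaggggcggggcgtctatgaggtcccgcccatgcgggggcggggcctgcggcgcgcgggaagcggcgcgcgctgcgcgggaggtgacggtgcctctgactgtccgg

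The MCM6 window held 4 matches to the E2F core, in 2 pairs that each overlap on opposite strands, and 2 CCAAT boxes. The GINS1 and TYMS windows held 1 E2F match each, and the CHAF1B window held neither motif. A shorter E2F core of 7 letters, without the first T, was present in the PRIM1 and CHAF1B windows. Over the 43 windows, 20 held the 8-letter E2F core, which is 46.5% of them, against 3.33% of all 27305 promoters and 5.4% of the 9828 promoters of tested genes. The first base of the matches lay at a median of -35 from the start, between -187 and 8. The CCAAT box was found in 24 of 43 windows (55.8%), against 36.9% of the promoters of tested genes. The GC box GGGCGG was in 31 (72.1%, against 68.3%). The CHR element TTTGAA, a core of promoters used later in the cell cycle, was in 1, that of RRM1 (2.33%, against 10.2%). These are matches of letters and not measured binding.

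**Figure D1:**
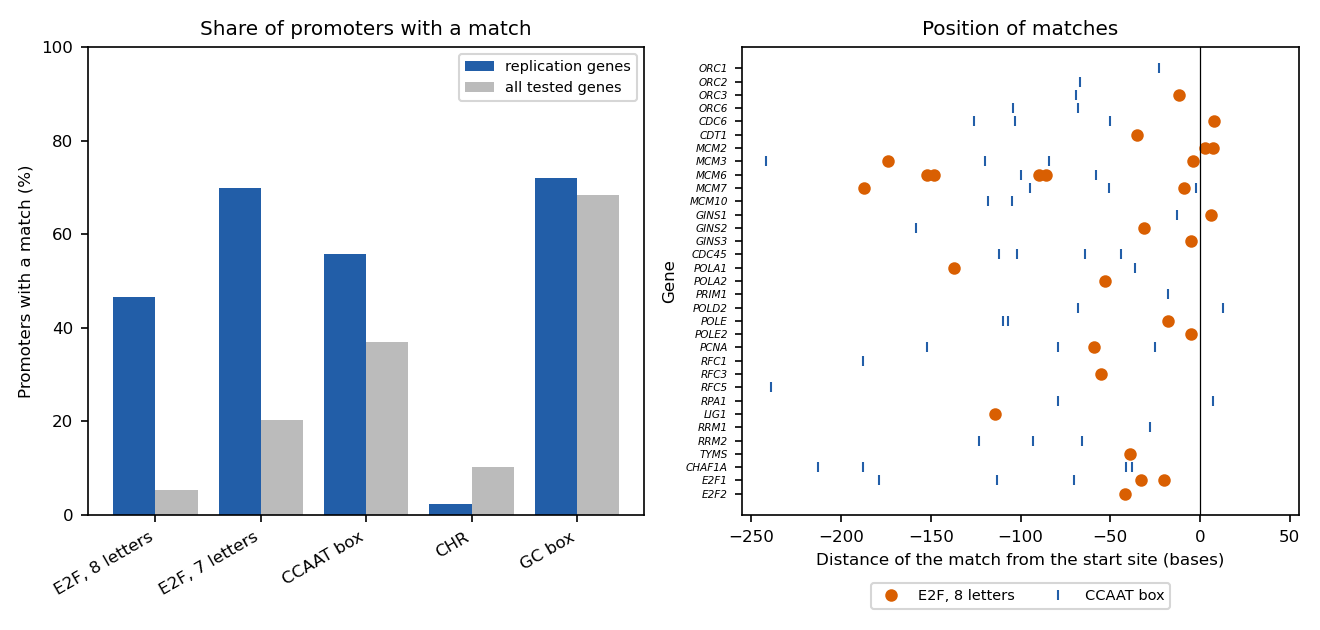
Left, the share of promoter windows with a match to each motif (percent, from 0), for the 43 replication gene windows (blue) and the 9828 windows of tested genes (grey). Right, the distance in bases of each E2F match (8 letters, circles) and CCAAT match (ticks) from the start site, 1 gene per line. The 8-letter E2F core was in 46.5% of the replication gene windows and 5.4% of the windows of tested genes, and the median of its matches lay 35 bases before the start.

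Total counts ran from 13204588 to 26304900 per library. The 50 genes took 0.600% and 0.510% of the counts in the combination libraries, 0.411% and 0.414% with TAK-981, 0.671% and 0.743% with venetoclax, and 0.630% and 0.584% with vehicle. Levels are given as CPM, counts relative to each library's total after scaling by the trimmed mean of M values, the same scaling as in the fold changes. KG1a markers were present, with CD34 between 953 and 1519 CPM and PTPRC, the CD45 gene, between 429 and 830 CPM. Of the markers of other cell types given here, HBB and EPCAM had 0 counts in every library and MPO, CD14 and COL1A1 stayed at or below 0.642 CPM, while the T cell gene CD3E stood between 5.62 and 15.6 CPM. Within 2 of the groups the libraries stood apart from each other for these genes. Combination replicate 1 was above combination replicate 2 in 45 of 50 members, with a median gap of 0.20 log2 units against 0.12 over all tested genes. The venetoclax replicates differed by a median of 0.23 (0.27 over all tested genes), against 0.074 for TAK-981 and 0.063 for vehicle. By the GENCODE 29 annotation, exons of 22 members overlap another gene, 17 of them a gene on the opposite strand, and 8 members have pseudogenes of their name. The strand setting of the counting is not given in the sources used here, so their levels are less certain. MCM2, MCM7, GINS2, PRIM1, RFC4, RFC5, RPA1, RPA3, FEN1, TYMS, CHAF1A and CCNE2 overlap a protein-coding gene on the opposite strand.

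Most of the 50 genes were lower with TAK-981 than with vehicle, and most were higher with venetoclax. The combination mostly lay between the single drugs. By group means, 44 of 50 members ran upward from TAK-981 to the combination to venetoclax, against 23.1% of all tested genes. The libraries of these 3 groups kept that order without overlap in 33 members, against 10.3% of all tested genes. TAK-981 had the lowest mean of the 4 groups in 47 members (22.5% of all tested genes), the exceptions being POLE, RFC3 and RPA3. The combination libraries lay above both TAK-981 libraries in 45 members (33.8% of all tested genes) and below both venetoclax libraries in 36 (35.8%). They lay below both vehicle libraries in 32 members (35.8%) and above both in 5 (36.8%). Venetoclax had the highest mean in 42 members (33.6% of all tested genes), and the exceptions were CDT1, MCM2, POLD1, POLE, RPA3, TK1, E2F1 and E2F2.

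**Figure D2:**
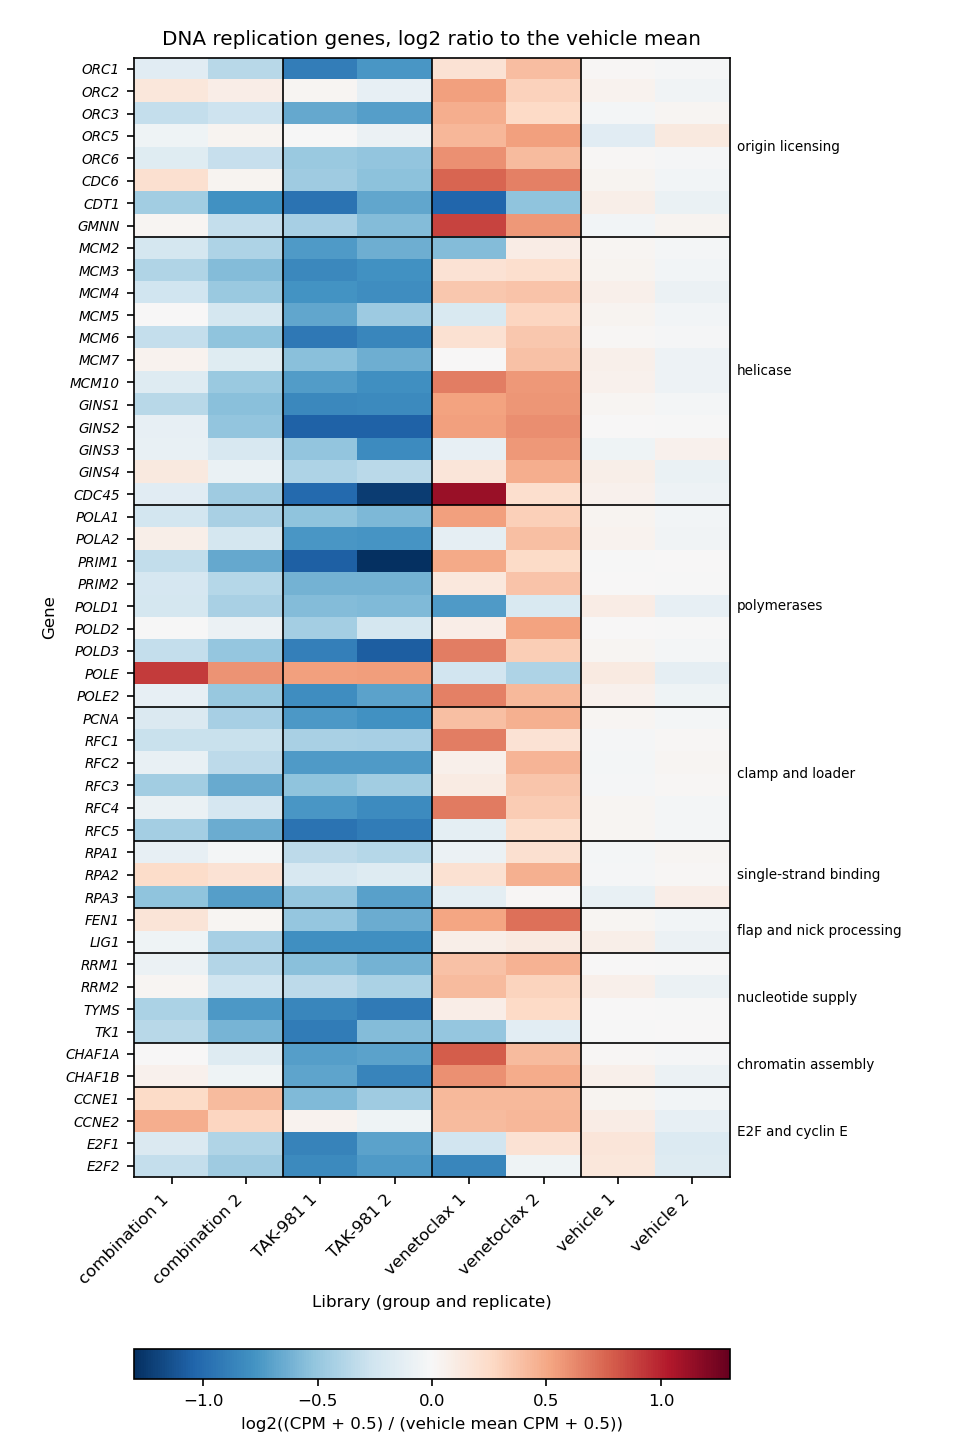
Colour gives the log2 ratio of each gene's CPM to its vehicle mean (0.5 CPM added to both) in each of the 8 libraries, with genes in rows by role and libraries in columns. The TAK-981 columns are blue in nearly all rows (medians -0.68 and -0.68), the venetoclax columns mostly red (0.27 and 0.37), and the combination columns lie between (-0.13 and -0.37), while POLE runs the other way.

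TAK-981 was compared with vehicle to give the effect of blocking SUMO activation alone. Of the 50 genes, 36 fell, 1 rose and 13 were not called at an adjusted p of 0.05 by edgeR's quasi-likelihood test. Over all tested genes 12.2% were called, 6.18% lower and 5.98% higher. The median log2 fold change of the 50 genes was -0.69, against 0.0015 for all tested genes, and 49 of 50 fold changes were below 0. The TAK-981 libraries lay below both vehicle libraries in 46 genes (32.9% of all tested genes), the others being ORC2, ORC5, POLE and CCNE2. Fewer members were called lower without any 1 of the TAK-981 or vehicle libraries, and fewer of all tested genes were called in those fits too. With the TAK-981 and vehicle libraries fitted alone, 45 members were called lower, where 4096 of 12590 genes were called. The median stayed between -0.70 and -0.68 with any 1 of the 8 libraries left out. MCM3, MCM6, GINS1, GINS2, PRIM1, POLD3, PCNA and RFC5 were called in all 8 of those fits.

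Venetoclax was compared with vehicle to give the effect of blocking BCL2 alone. Of the 50 genes, 20 rose, 1 fell, CDT1, and 29 were not called. Over all tested genes 20.8% were called, 11.4% higher and 9.44% lower. Of the 20 that rose, 16 had fallen with TAK-981, and both comparisons use the same vehicle libraries. This overlap was not counted over all tested genes. The 16 were ORC3, ORC6, CDC6, MCM10, GINS1, GINS2, POLA1, POLD3, POLE2, PCNA, RFC4, FEN1, RRM1, CHAF1A, CHAF1B and CCNE1. The median log2 fold change of the 50 genes with venetoclax was 0.35, against 0 for all tested genes. Both venetoclax libraries lay above both vehicle libraries in 35 genes, against 29.7% of all tested genes. When edgeR was fitted to the 4 libraries of these groups alone, 0 members were called, where 200 of 12293 genes were called. In that fit 21 members were higher and 1 lower at an unadjusted p under 0.05, a count not made over all genes. Fewer members were called higher without any 1 of the vehicle or TAK-981 libraries, and fewer of all tested genes were called. Without 1 of the venetoclax libraries more were called, among the members and over all genes. The median stayed between 0.27 and 0.37 with any 1 library left out. CDC6 alone was called in all 8 fits with 1 library left out.

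With both drugs, 9 genes were lower than with vehicle and 2 were higher, POLE and CCNE2, while 39 were not called. Over all tested genes 27.9% were called, 15.1% lower and 12.8% higher, so the share of members that fell, 18%, was near that of all genes. The median was -0.27, against 0.012 for all tested genes. The 9 were CDT1, MCM3, MCM4, MCM6, GINS1, RFC3, RFC5, RPA3 and TYMS, and all 9 had also fallen with TAK-981 alone. Both of these comparisons use the same vehicle libraries, and the overlap was not counted over all tested genes. Fewer members were called without any 1 of the combination, TAK-981 or vehicle libraries, and more without 1 of the venetoclax libraries. Calls over all tested genes moved the same way in these fits. The median was -0.38 without combination replicate 1 and -0.13 without combination replicate 2. With the 4 libraries of this comparison alone 21 members were called lower, where 5740 of 12595 genes were called. POLE alone was called in all 8 fits with 1 library left out.

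The combination against venetoclax gives the effect of TAK-981 in cells that also receive venetoclax. Here 31 members fell and 1 rose, POLE, where 39.6% of all tested genes were called, 22% lower and 17.6% higher, and the median was -0.56, against -0.021 for all tested genes. The median ran from -0.65 to -0.49 with 1 library left out, and not every call held in each of those fits. The combination against TAK-981 gives the effect of venetoclax in cells that receive TAK-981. There 18 members rose and 0 fell, where 8.8% of all tested genes were called, 2.76% higher and 6.03% lower. No member fell at an unadjusted p under 0.05 by edgeR either, a count not made over all tested genes. DESeq2 called 0 lower and 24 higher, where 1345 of 12502 genes were called, 459 of them higher. The median was 0.40, against 0.016 for all tested genes. Fewer members were called higher by edgeR without any 1 of the TAK-981, combination or vehicle libraries, and more without 1 of the venetoclax libraries. Calls over all tested genes moved the same way in these fits. The median ran from 0.30 to 0.50 with 1 library left out. With the 4 libraries of this comparison alone 41 members rose, where 3746 of 12566 genes were called.

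The effect of TAK-981 can thus be read both without and with venetoclax, from 4 groups that share no library. It had the same sign in 48 of 50 genes, and 27 genes fell in both. Counts of genes with the same sign or called in both, here and for venetoclax below, were not made over all tested genes. Whether they exceed the rate over all genes is therefore not known. The exceptions in sign were CDT1 and POLD1, with log2 fold changes of 0.14 and 0.11 in venetoclax-treated cells, neither called. Across the 50 genes the 2 sets of fold changes had a Pearson r of 0.61 (Spearman 0.42), and r over all tested genes was 0.76. Genes are not independent replicates, so these are descriptions. The effect of venetoclax had the same sign without and with TAK-981 in 42 of 50 genes, 12 rose in both, and r was 0.38 with a Spearman value of 0.38 (0.46 over all tested genes). The interaction is the TAK-981 log2 fold change in venetoclax-treated cells minus that in cells without venetoclax. By edgeR it was called for 0 of 50 genes and for 0.0311% of all tested genes. By DESeq2 it was called for 0 of 50 genes and for 302 of 11448 genes. At an unadjusted p under 0.05, 8 members were above 0 by edgeR and 9 by DESeq2, and 0 were below by either. These unadjusted counts were not made over all tested genes, so whether they exceed the rate over all genes is not known. The median SE of this difference was 0.18 log2 units. The smallest adjusted p was that of CDT1, 0.166, with an interaction of 0.97. Without venetoclax replicate 2, which leaves that group 1 library, the median interaction of the members was 0.18, against 0.09 with all libraries. Without a filter on low counts the interaction was called above 0 for 4 members, CDT1, MCM2, POLE and E2F2. In that fit 1098 of 18124 genes were called, 445 of them above 0.

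**Figure D3:**
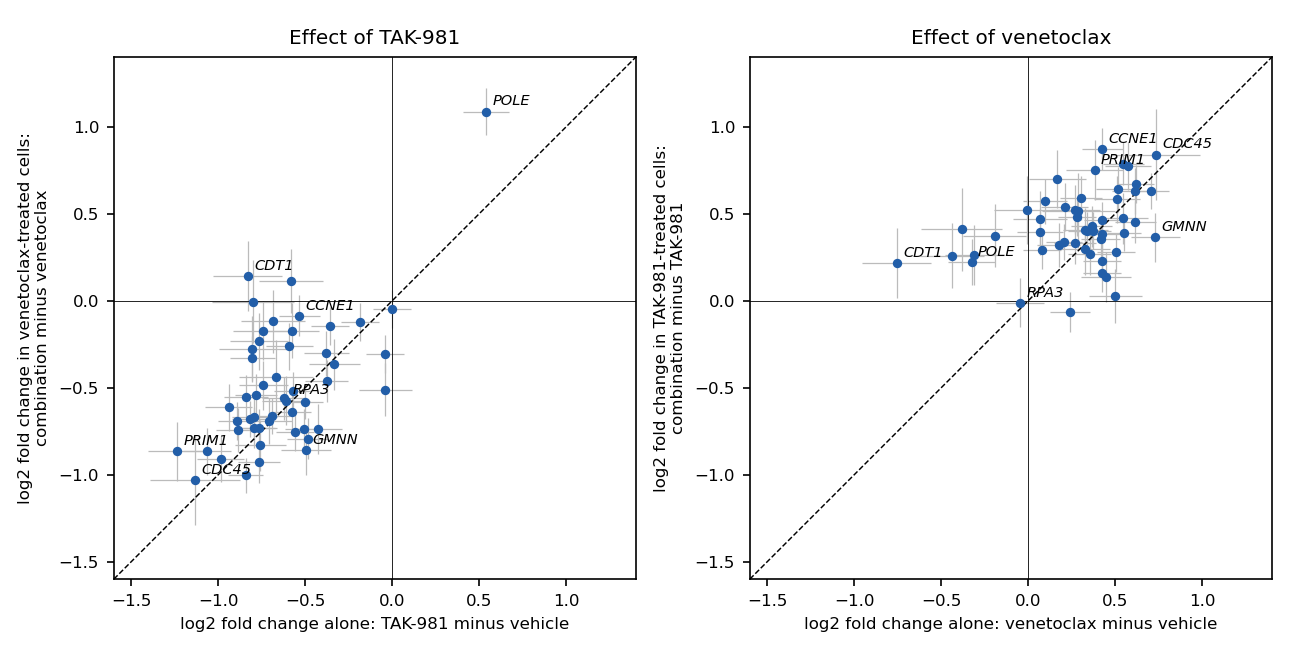
Log2 fold changes of the 50 genes (points, bars are the SE), for TAK-981 alone and in venetoclax-treated cells (left) and for venetoclax alone and in TAK-981-treated cells (right); the dashed line marks equal effects. On the left 48 of 50 genes have the same sign on both axes and POLE stands alone at the upper right, and on the right 42 of 50 have the same sign.

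The licensing genes load the helicase onto origins. With TAK-981, 5 of 8 fell and 3 were not called (median -0.50). With venetoclax 6 rose, CDT1 fell and ORC1 was not called (median 0.46). ORC1, the subunit of the origin recognition complex that is made anew in G1, stood at 47.7 and 41.1 CPM with the combination, 28.1 and 31.0 with TAK-981, 60.2 and 69.98 with venetoclax, and 53.4 and 52.3 with vehicle. Its TAK-981 libraries were the lowest of the 8, and its log2 fold change was -0.84 (SE 0.124, adjusted p = 0.00333). ORC3, a core subunit, stood at 55.5 and 56.9 CPM with the combination, 43.3 and 41.7 with TAK-981, 95.8 and 82.3 with venetoclax, and 67.5 and 69.9 with vehicle. ORC3 fell with TAK-981, -0.69 (adjusted p = 0.00394), and rose with venetoclax, 0.37 (adjusted p = 0.0347). ORC6 stood at 43.9 and 39.5 CPM with the combination, 34.8 and 34.1 with TAK-981, 74.2 and 65.1 with venetoclax, and 49.5 and 48.4 with vehicle, with log2 fold changes of -0.51 with TAK-981 and 0.51 with venetoclax, both called. The groups of ORC3 and ORC6 did not overlap.

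ORC2 and ORC5, also subunits of the complex, were not called with TAK-981. ORC2 stood at 85.6 and 82.1 CPM with the combination, 78.5 and 71.5 with TAK-981, 112 and 95.5 with venetoclax, and 79.6 and 75.0 with vehicle. ORC5 stood at 12.7 and 13.5 CPM with the combination, 13.2 and 12.5 with TAK-981, 18.0 and 19.2 with venetoclax, and 11.9 and 14.5 with vehicle. Their TAK-981 libraries overlapped those of vehicle, at -0.043 (adjusted p = 0.851) and -0.039 (adjusted p = 0.907), and both genes rose with venetoclax, 0.42 (adjusted p = 0.0253) and 0.50 (adjusted p = 0.0441). CDC6, the ATPase that loads the helicase with ORC (chromosome 17, 40287633 to 40304657, hg38), stood at 92.3 and 81.6 CPM with the combination, 57.6 and 54.9 with TAK-981, 135 and 126 with venetoclax, and 81.6 and 77.8 with vehicle. CDC6 rose with venetoclax, 0.71 (SE 0.101, adjusted p = 0.00348), and fell with TAK-981, -0.50 (SE 0.101, adjusted p = 0.0137). Its combination libraries lay level with or above those of vehicle, 0.13 (adjusted p = 0.385).

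CDT1, the partner of CDC6 in helicase loading (chromosome 16, 88803213 to 88809258, hg38), was the only member to fall with each drug. It stood at 23.5 and 18.5 CPM with the combination, 16.4 and 20.1 with TAK-981, 15.5 and 22.4 with venetoclax, and 34.1 and 30.5 with vehicle. All 6 treated libraries were below both vehicle libraries, and the 3 treated groups overlapped one another. The log2 fold changes against vehicle were -0.83 (SE 0.198, adjusted p = 0.0275) for TAK-981, -0.76 (SE 0.198, adjusted p = 0.0276) for venetoclax and -0.62 (SE 0.198, adjusted p = 0.0457) for the combination. GMNN encodes geminin, which binds CDT1 and stops relicensing, and it moved the other way with venetoclax. It stood at 79.3 and 62.9 CPM with the combination, 57.9 and 52.8 with TAK-981, 144 and 116 with venetoclax, and 76.3 and 79.9 with vehicle, with 0.73 (adjusted p = 0.00964) for venetoclax and -0.49 (adjusted p = 0.0534) for TAK-981, the second not called. Both venetoclax libraries were thus high for the inhibitor and low for its target.

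**Figure D4:**
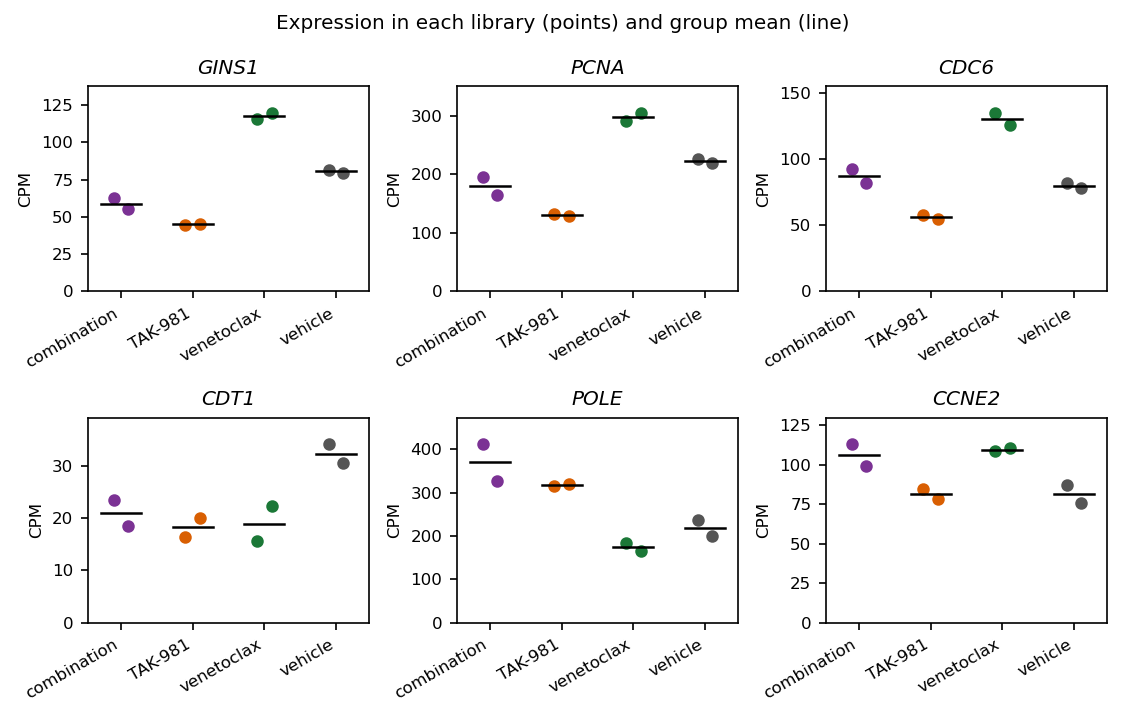
CPM in each of the 8 libraries (points) with the group mean (line) for 6 genes, on linear axes from 0. GINS1, PCNA and CDC6 are lowest with TAK-981 and highest with venetoclax, CDT1 is below vehicle in all 3 treated groups, POLE is high in both groups with TAK-981, and CCNE2 is high in both groups with venetoclax.

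The helicase genes unwind DNA at the fork. With TAK-981 10 of 12 fell (median -0.78) and GINS3 and GINS4 were not called, at -0.67 (adjusted p = 0.0774) and -0.38 (adjusted p = 0.0955). With venetoclax 3 rose, MCM10, GINS1 and GINS2, and 9 were not called (median 0.31). GINS1, a subunit of the 4-part GINS complex (chromosome 20, 25407727 to 25452628, hg38), had the smallest adjusted p of all members for TAK-981. It stood at 62.4 and 54.9 CPM with the combination, 44.7 and 45.02 with TAK-981, 116 and 119.9 with venetoclax, and 81.7 and 79.2 with vehicle, with no overlap between any of the groups. The log2 fold changes were -0.84 (SE 0.0995, adjusted p = 0.00118) with TAK-981, 0.55 (SE 0.0979, adjusted p = 0.00722) with venetoclax, -0.45 (SE 0.0989, adjusted p = 0.00907) with the combination against vehicle and -1.004 (SE 0.0994, adjusted p = 0.000266) for the combination against venetoclax. GINS2 stood at 45.8 and 34.4 CPM with the combination, 23.6 and 23.5 with TAK-981, 71.6 and 74.9 with venetoclax, and 49.3 and 49.3 with vehicle. GINS2 fell with TAK-981, -1.07 (SE 0.138, adjusted p = 0.00185), so that both TAK-981 libraries held less than 0.5 of the vehicle level, and its groups did not overlap. GINS4 stood at 82.6 and 71.4 CPM with the combination, 57.5 and 59.2 with TAK-981, 84.7 and 105 with venetoclax, and 80.2 and 71.4 with vehicle, and its combination and vehicle libraries overlapped.

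The 6 subunits of the MCM2-7 ring all fell with TAK-981, with log2 fold changes from -0.89 for MCM6 to -0.58 for MCM5. MCM6 (chromosome 2, 135839626 to 135876426, hg38) stood at 245 and 211 CPM with the combination, 159 and 168 with TAK-981, 348 and 389 with venetoclax, and 308 and 301 with vehicle, with -0.89 (SE 0.11, adjusted p = 0.00147) for TAK-981 and 0.28 (adjusted p = 0.1) for venetoclax, the second not called. MCM7 stood at 102 and 89.0 CPM with the combination, 68.0 and 63.7 with TAK-981, 99.8 and 129.6 with venetoclax, and 104 and 94.97 with vehicle, and one venetoclax library lay within the vehicle range. MCM2 stood at 188 and 167 CPM with the combination, 132 and 142 with TAK-981, 149 and 236 with venetoclax, and 224 and 217 with vehicle. Its venetoclax libraries lay on both sides of vehicle, and for the combination against venetoclax it was -0.12 with all libraries and 0.24, then called higher, without venetoclax replicate 2. MCM3, MCM4 and MCM6 also fell with the combination against vehicle, with log2 fold changes of -0.48, -0.37 and -0.41, whereas MCM2, MCM5 and MCM7 were not called, at -0.31, -0.11 and -0.052. The difference between these trios was not tested.

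Each ring holds 1 copy of each subunit, but the RNA levels per kb of gene model differed. Per kb, MCM3 was highest and MCM5 lowest in vehicle, at 128 and 16.2 CPM per kb, a ratio of 7.91. With TAK-981 they were 72.6 and 10.8 CPM per kb, a ratio of 6.70. In the combination and venetoclax groups MCM4 was highest, at 94.7 and 157 CPM per kb, against 15.0 and 16.9 CPM per kb for MCM5. Below the first 2 ranks, the order MCM6, MCM2, MCM7 and MCM5 was the same in the 4 groups. Over the 50 genes PCNA had the highest level per kb in every group, 122.8 with the combination, 89.2 with TAK-981, 204 with venetoclax and 152 with vehicle. The fold change with TAK-981 had little relation to the vehicle level in CPM (Spearman 0.090 across 50 genes, a description).

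**Figure D5:**
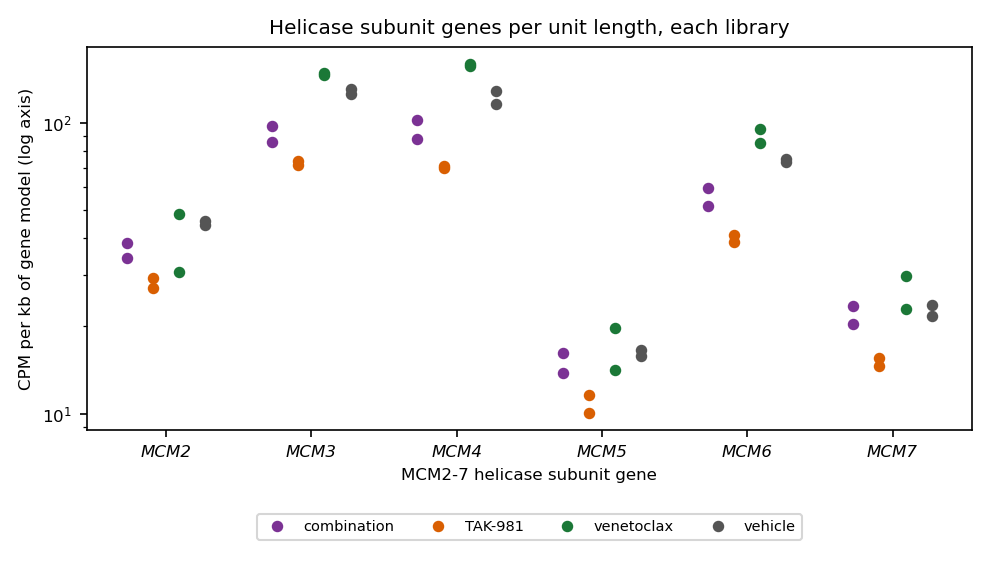
Level of the 6 MCM2-7 genes per kb of gene model (CPM per kb, log axis) in each library, with the 4 groups side by side for each gene. TAK-981 libraries are lowest for each gene, and the spread between genes, from 16.2 for MCM5 to 128 for MCM3 in vehicle, is wider than that between groups.

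CDC45 travels with the helicase as part of its active form. It stood at 40.0 and 32.1 CPM with the combination, 21.8 and 18.6 with TAK-981, 97.1 and 51.7 with venetoclax, and 46.3 and 42.5 with vehicle. Venetoclax replicate 1 was well above venetoclax replicate 2, the widest gap of any member, and the fall with TAK-981 was -1.13 (SE 0.26, adjusted p = 0.0233). MCM10, which acts in helicase activation, stood at 94.5 and 76.1 CPM with the combination, 64.1 and 60.9 with TAK-981, 169 and 157 with venetoclax, and 111 and 102 with vehicle. MCM10 fell with TAK-981, -0.77 (adjusted p = 0.00437), rose with venetoclax, 0.62 (adjusted p = 0.00921), and its combination libraries lay below vehicle without a call, -0.31 (adjusted p = 0.0789).

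Among the polymerase genes 6 of 9 fell with TAK-981, POLE rose, and POLD1 and POLD2 were not called (median -0.62). PRIM2, the large primase subunit, was among those that fell, -0.62 (adjusted p = 0.012), and POLD2, a small subunit of polymerase delta, was at -0.33 (adjusted p = 0.185). With venetoclax POLA1, POLD3 and POLE2 rose and 6 were not called (median 0.33). Primase and polymerase alpha lay down the primers. PRIM1, the catalytic primase subunit, had the largest fall of all 50 members with TAK-981. It stood at 20.6 and 16.0 CPM with the combination, 12.0 and 9.79 with TAK-981, 36.5 and 30.8 with venetoclax, and 25.7 and 25.8 with vehicle, so that both TAK-981 libraries held less than 0.5 of the vehicle level, -1.23 (SE 0.171, adjusted p = 0.00238). POLA1, the catalytic subunit of polymerase alpha, stood at 103 and 90.5 CPM with the combination, 84.3 and 80.8 with TAK-981, 176 and 150.5 with venetoclax, and 124 and 119 with vehicle, with -0.56 (adjusted p = 0.0123) for TAK-981 and 0.42 (adjusted p = 0.0255) for venetoclax. POLA2, its accessory subunit, stood at 97.3 and 78.9 CPM with the combination, 54.7 and 54.0 with TAK-981, 85.4 and 121 with venetoclax, and 95.1 and 89.7 with vehicle. POLA2 fell with TAK-981, -0.77 (adjusted p = 0.0178), and its venetoclax libraries lay on both sides of vehicle.

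The polymerases that extend the strands split by subunit. POLD3, an accessory subunit of polymerase delta, stood at 89.9 and 78.4 CPM with the combination, 59.8 and 52.7 with TAK-981, 178 and 139.6 with venetoclax, and 113 and 109.7 with vehicle. POLD3 fell with TAK-981, -0.99 (SE 0.135, adjusted p = 0.00233), and rose with venetoclax, 0.51 (SE 0.133, adjusted p = 0.0272), with no overlap between groups. The catalytic subunit POLD1 stood at 23.0 and 20.2 CPM with the combination, 18.2 and 18.0 with TAK-981, 16.1 and 23.6 with venetoclax, and 29.01 and 25.2 with vehicle. All its treated libraries were below vehicle, with log2 fold changes of -0.58 (adjusted p = 0.0714), -0.44 (adjusted p = 0.118) and -0.32 (adjusted p = 0.218) for TAK-981, venetoclax and the combination, none called. POLE2, the second subunit of polymerase epsilon, stood at 48.4 and 36.9 CPM with the combination, 29.7 and 32.0 with TAK-981, 82.5 and 70.02 with venetoclax, and 54.2 and 50.2 with vehicle, and it fell with TAK-981, -0.76 (adjusted p = 0.0117), and rose with venetoclax, 0.54 (adjusted p = 0.0284).

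POLE, the catalytic subunit of polymerase epsilon, which copies the leading strand (chromosome 12, 132623753 to 132687365, hg38), ran against the other members. It stood at 412 and 328 CPM with the combination, 316 and 319 with TAK-981, 184 and 165 with venetoclax, and 236 and 201 with vehicle. All 4 libraries with TAK-981 were above all 4 without it, and both venetoclax libraries were the lowest. POLE rose with TAK-981, 0.54 (SE 0.134, adjusted p = 0.0319), and with the combination against both vehicle, 0.76 (SE 0.134, adjusted p = 0.00356), and venetoclax, 1.09 (SE 0.135, adjusted p = 0.000661). With venetoclax alone it was not called, -0.33 (adjusted p = 0.114). Its promoter window held 1 match to the E2F core and 2 CCAAT boxes, and GENCODE 29 lists no exon of another gene over its exons. The call for TAK-981 alone was lost without any 1 of the TAK-981 or vehicle libraries. The RNA of POLE and of its partner POLE2 thus moved in opposite directions in the comparison of TAK-981 with vehicle.

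Clamp and clamp loader genes fell together with TAK-981, 5 of 6 called (median -0.75), with RFC1 not called at -0.43 (adjusted p = 0.0854). PCNA, the ring that holds polymerases on DNA and is itself a known target of SUMO (chromosome 20, 5114953 to 5126626, hg38), stood at 195 and 165 CPM with the combination, 132 and 129 with TAK-981, 291 and 305 with venetoclax, and 225.4 and 219 with vehicle. Its groups did not overlap, and the log2 fold changes were -0.77 (SE 0.105, adjusted p = 0.00228) with TAK-981 and 0.42 (SE 0.104, adjusted p = 0.0213) with venetoclax. RFC4, one of the small loader subunits, stood at 64.0 and 58.3 CPM with the combination, 40.2 and 38.4 with TAK-981, 109 and 85.8 with venetoclax, and 69.3 and 66.9 with vehicle, with -0.79 (adjusted p = 0.00513) for TAK-981 and 0.52 (adjusted p = 0.021) for venetoclax. RFC2, RFC3 and RFC5 fell with TAK-981, with log2 fold changes of -0.74, -0.49 and -0.94, and were not called with venetoclax. All 6 genes fell in the combination against venetoclax, with log2 fold changes from -0.79 for RFC3 to -0.49 for RFC2. RFC3 was the one loader gene whose combination mean lay below its TAK-981 mean, and its combination libraries overlapped those of TAK-981.

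Genes for replication protein A, which coats single-stranded DNA, had the medians nearest to 0 of the role groups, -0.36 with TAK-981 and 0.078 with venetoclax. With TAK-981 1 of 3 fell, RPA3. With venetoclax 0 of 3 were called by edgeR, and RPA2 alone had an unadjusted p under 0.05. RPA3, the smallest subunit, stood at 22.2 and 19.4 CPM with the combination, 22.5 and 19.5 with TAK-981, 29.4 and 32.5 with venetoclax, and 30.1 and 34.1 with vehicle. Both groups with TAK-981 were low and both without it high, -0.61 (adjusted p = 0.0224) for TAK-981 and -0.62 (adjusted p = 0.0104) for the combination against vehicle, with -0.048 (adjusted p = 0.828) for venetoclax. RPA2 stood at 84.5 and 81.7 CPM with the combination, 62.0 and 63.8 with TAK-981, 81.9 and 98.8 with venetoclax, and 70.7 and 72.6 with vehicle, with -0.19 (adjusted p = 0.316) for TAK-981 and 0.34 (adjusted p = 0.0548) for venetoclax. RPA1, the largest subunit, was at -0.36 (adjusted p = 0.0665) with TAK-981 and 0.078 (adjusted p = 0.643) with venetoclax.

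FEN1 and LIG1, which trim and join the pieces of the lagging strand, both fell with TAK-981. FEN1, the flap nuclease, stood at 181 and 165 CPM with the combination, 114 and 103 with TAK-981, 230.0 and 265 with venetoclax, and 165 and 158 with vehicle, with -0.57 (SE 0.109, adjusted p = 0.0107) for TAK-981 and 0.62 (SE 0.108, adjusted p = 0.00689) for venetoclax. LIG1, the DNA ligase, stood at 106 and 81.4 CPM with the combination, 63.0 and 63.1 with TAK-981, 116 and 119.7 with venetoclax, and 116 and 104 with vehicle. LIG1 fell with TAK-981, -0.80 (SE 0.128, adjusted p = 0.00496), and its vehicle and venetoclax libraries overlapped, 0.10 (adjusted p = 0.613). Both genes rose in the combination against TAK-981, by 0.67 and 0.57.

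Of the 4 genes of nucleotide supply 3 fell with TAK-981 (median -0.66) and RRM1 alone rose with venetoclax (median 0.26). TYMS, which makes thymidylate, stood at 227 and 179.5 CPM with the combination, 167 and 159 with TAK-981, 319 and 360.3 with venetoclax, and 302 and 300.03 with vehicle. TYMS fell with TAK-981, -0.89 (SE 0.126, adjusted p = 0.00277), and with the combination, -0.57 (SE 0.126, adjusted p = 0.00991), and was not called with venetoclax, 0.17 (adjusted p = 0.348). RRM1, the large subunit of ribonucleotide reductase, stood at 204 and 166 CPM with the combination, 149 and 141 with TAK-981, 282 and 295 with venetoclax, and 217 and 216 with vehicle, with -0.58 (adjusted p = 0.012) and 0.42 (adjusted p = 0.0304) for TAK-981 and venetoclax. Its partner RRM2 was not called with either, -0.38 (adjusted p = 0.0789) and 0.35 (adjusted p = 0.0694). TK1, the thymidine kinase of the salvage route, stood at 28.5 and 24.0 CPM with the combination, 19.3 and 24.7 with TAK-981, 25.7 and 33.3 with venetoclax, and 36.6 and 37.0 with vehicle, and all treated libraries were below vehicle. TK1 fell with TAK-981, -0.74 (adjusted p = 0.0229), and was not called with venetoclax, -0.31 (adjusted p = 0.217).

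CHAF1A and CHAF1B, subunits of the factor that puts histones onto new DNA, fell with TAK-981 and rose with venetoclax. CHAF1A stood at 107 and 95.3 CPM with the combination, 65.0 and 66.1 with TAK-981, 186 and 142 with venetoclax, and 108 and 106 with vehicle, with -0.71 (SE 0.131, adjusted p = 0.00927) for TAK-981 and 0.61 (SE 0.13, adjusted p = 0.0131) for venetoclax. CHAF1B stood at 37.3 and 34.5 CPM with the combination, 22.0 and 19.6 with TAK-981, 54.5 and 50.4 with venetoclax, and 37.7 and 34.1 with vehicle, with -0.78 (SE 0.121, adjusted p = 0.00414) for TAK-981 and 0.55 (SE 0.118, adjusted p = 0.014) for venetoclax. In both genes the combination and vehicle libraries overlapped, at -0.081 (adjusted p = 0.687) and 0.0029 (adjusted p = 0.989). Both rose in the combination against TAK-981, by 0.63 and 0.79.

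With TAK-981 2 of the 4 regulators fell (median -0.67), CCNE1 and E2F1, and with venetoclax CCNE1 and CCNE2 rose (median 0.21). CCNE1, the cyclin that drives entry into S phase, stood at 32.1 and 36.0 CPM with the combination, 17.9 and 19.4 with TAK-981, 36.2 and 36.1 with venetoclax, and 27.6 and 26.3 with vehicle. CCNE1 fell with TAK-981, -0.53 (SE 0.119, adjusted p = 0.0207), rose with venetoclax, 0.42 (SE 0.117, adjusted p = 0.033), and rose with the combination against TAK-981, 0.87 (SE 0.12, adjusted p = 0.00437). CCNE2, the second cyclin E, stood at 113 and 99.1 CPM with the combination, 84.4 and 78.5 with TAK-981, 109 and 110.4 with venetoclax, and 87.2 and 75.9 with vehicle. Its TAK-981 libraries overlapped those of vehicle, -0.00095 (adjusted p = 0.996), and it rose with venetoclax, 0.43 (adjusted p = 0.0252), and with the combination, 0.38 (adjusted p = 0.0296). E2F1, an activating E2F factor, stood at 19.0 and 16.5 CPM with the combination, 11.7 and 13.2 with TAK-981, 18.1 and 24.7 with venetoclax, and 24.3 and 19.1 with vehicle. E2F1 fell with TAK-981, -0.80 (adjusted p = 0.0275), and its venetoclax libraries overlapped those of vehicle, -0.0074 (adjusted p = 0.984). E2F2, another of them, stood at 22.4 and 20.0 CPM with the combination, 15.4 and 16.5 with TAK-981, 15.2 and 26.8 with venetoclax, and 30.8 and 24.7 with vehicle, with -0.80 (adjusted p = 0.0588) for TAK-981 and -0.38 (adjusted p = 0.267) for venetoclax, neither called. For the combination against venetoclax E2F2 was -0.0058, and 0.47, then called higher, without venetoclax replicate 2.

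The members with the 8-letter E2F core in their promoter window were set beside those without it, as a description with no test. Their median log2 fold change with TAK-981 was -0.77 over 20 genes with the core and -0.58 over the other 23. With venetoclax the medians were 0.23 with the core and 0.42 without. A gap in the TAK-981 medians was also seen for the GC box, -0.74 with it and -0.60 without. For the CCAAT box the TAK-981 medians were -0.70 with it and -0.74 without. With venetoclax they were 0.37 and 0.31 for the GC box, and 0.40 and 0.27 for the CCAAT box. Of the 3 genes with the lowest fold change with TAK-981, GINS2 held the core and PRIM1 and CDC45 did not. The shorter core of 7 letters was in the PRIM1 window but not in that of CDC45. CDT1, POLE and E2F2 held the 8-letter core too.

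Another 62 genes around DNA replication, from a list of origin firing, fork, nucleotide and E2F genes, were read from the same fit, and all 62 were tested. With TAK-981 27 fell and 1 rose (median -0.49), where 6.18% of all tested genes fell and 5.98% rose. With venetoclax 18 rose and 1 fell (median 0.28), where 11.4% of all tested genes rose and 9.44% fell. With the combination against vehicle 21 fell and 3 rose, CLSPN, POLD4 and E2F4 (median -0.21). There 15.1% of all tested genes fell and 12.8% rose. The smallest p with TAK-981 belonged to WDHD1, which ties polymerase alpha to the helicase, DUT, which clears dUTP, CDC7, the kinase that fires origins, and TICRR, which helps load CDC45. Their log2 fold changes, in the same order, were -0.76, -0.68, -0.85 and -0.95. CDC7 stood at 75.1 and 63.8 CPM with the combination, 60.8 and 55.2 with TAK-981, 154 and 126 with venetoclax, and 108 and 100.8 with vehicle. With venetoclax the smallest p belonged to POLE3, a histone-fold subunit of polymerase epsilon, CLSPN, which encodes the checkpoint adaptor claspin, NME1, a nucleoside diphosphate kinase, and DBF4, the activator of CDC7. Their log2 fold changes, in the same order, were 0.89, 1.39, 1.18 and 0.78. CLSPN stood at 177 and 187 CPM with the combination, 85.0 and 69.5 with TAK-981, 319 and 198 with venetoclax, and 100.7 and 96.5 with vehicle, high in both groups with venetoclax. With the combination against vehicle it belonged to E2F5, DCK, the deoxycytidine kinase, RB1, the retinoblastoma gene, and DUT, with log2 fold changes of -1.12, -1.18, -0.67 and -0.62. DCK stood at 59.2 and 52.6 CPM with the combination, 91.6 and 91.4 with TAK-981, 144 and 100.02 with venetoclax, and 119.9 and 133 with vehicle, and the combination libraries were the lowest.

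The single rise with TAK-981 and the single fall with venetoclax in that list were the same gene, POLD4, a small subunit of polymerase delta, which was chosen after its values were seen. POLD4 stood at 28.1 and 33.3 CPM with the combination, 36.1 and 40.5 with TAK-981, 14.2 and 10.9 with venetoclax, and 20.2 and 20.1 with vehicle. As for POLE, the 4 libraries with TAK-981 were above the 4 without it, with 0.93 (SE 0.154, adjusted p = 0.00592) for TAK-981, -0.70 (SE 0.161, adjusted p = 0.0171) for venetoclax and 0.60 (SE 0.155, adjusted p = 0.0184) for the combination. The direction of POLE and POLD4 with TAK-981 differed from that of another subunit of the same polymerase, POLE2 at -0.76 and POLD3 at -0.99. POLE3 stood at 163 and 178 CPM with the combination, 122 and 122 with TAK-981, 289 and 234 with venetoclax, and 132 and 149.8 with vehicle, and was not called with TAK-981, -0.21 (adjusted p = 0.323). POLE4, a further subunit of polymerase epsilon, was also chosen after its values were seen. It stood at 20.7 and 21.3 CPM with the combination, 18.9 and 19.3 with TAK-981, 13.2 and 20.3 with venetoclax, and 15.9 and 16.3 with vehicle. Its TAK-981 libraries lay above vehicle, in the direction of POLE, without a call.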

How the data were processed

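The authors deposited whole-number read counts per gene, not normalized, for 25168 genes with hg38 coordinates and a gene length in kb, per the file headers. Their processing notes list Trimmomatic, the aligner STAR (2.6.0), the counter HTSeq (0.11.1) and edgeR, and give no roles or settings, per the submitters' processing notes. A SMART-Seq kit is named in the labels' protocols, whereas the design text names ribosomal RNA removal. All genes were tested together with edgeR's quasi-likelihood test (R 4.3.3, edgeR 4.0.16, two-sided) after TMM scaling and filterByExpr, in 1 robust fit of the 8 libraries with a mean per group, and p-values were Benjamini-Hochberg adjusted over 12843 genes. All p-values come from this fit unless another tool is named. Each SE was approximated by dividing the log2 fold change by the root of its F statistic. The fit was tested on simulated data. Alternatives were DESeq2 1.42.0, its size factors, other low-count filters, a replicate block, 4 libraries alone and each library left out.

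The 50 members, role groups, the list of 62 genes and the tests were chosen with earlier results of these data known. Values in all 8 libraries are given for members with the smallest p of their role group with a single drug, called in opposite directions by 2 comparisons, or opposed to their role group, and for CDC45, chosen after its values were seen. Of the 62 genes, up to 4 per comparison are named by smallest p, and POLD4 and POLE4 were chosen after their values were seen. There were 2 libraries per group, with the depths given above. Some marker genes are not reported here.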

Additional observations from a re-analysis of the deposited data

How the results depend on the processing

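The medians of the 50 genes kept their sign under the alternatives run, except for the interaction, whose median was 0.09 and ran from -0.024 to 0.18 with 1 library left out. Counts of calls moved more. With the 4 libraries of a comparison alone, venetoclax against vehicle had 0 rises and 0 falls, the combination against vehicle 4 rises and 21 falls, and the combination against TAK-981 41 rises. Without a filter on low counts, falls were 3 for venetoclax and 16 for the combination against vehicle, rises were 28 for the combination against TAK-981, and the interaction was above 0 in 4 genes. In the same order, 3644, 4295, 1875 and 1098 of 18124 genes were called in either direction in that fit. The cause was not tested. With 1 library left out, TAK-981 against vehicle had 9 to 45 falls and 0 to 1 rises, venetoclax against vehicle 1 to 32 rises and 0 to 5 falls, and the combination against vehicle 0 to 27 falls and 1 to 4 rises. The combination then had 21 to 42 falls and 1 to 4 rises against venetoclax and 0 to 41 rises against TAK-981, and the interaction was above 0 in 0 to 14 genes and below in 0 to 3. The medians ran from -0.38 to -0.13 for the combination against vehicle and from 0.30 to 0.50 against TAK-981. Where such a fit leaves a group with a lone library, that library is assumed to vary like the other groups. Over all genes, calls for TAK-981 against vehicle numbered 4096 with the 4 libraries alone, against 1562. They were 200 against 2676 for venetoclax, 5740 against 3582 for the combination against vehicle, 2497 against 5086 for the combination against venetoclax and 3746 against 1130 for the combination against TAK-981. The interaction was called for 4 genes, and for 1098 without a filter, 302 by DESeq2, 24 with a replicate block and 8 with DESeq2's size factors. The replicate block gave 38 falls for TAK-981, 24 rises for venetoclax, 13 falls for the combination against vehicle, 33 falls against venetoclax and 21 rises against TAK-981. In the same order, it called 1739, 2994, 3798, 5306 and 1253 of 12843 genes in either direction. Nothing in the labels says that a replicate number marks a shared culture or day, and deviations of same-numbered libraries correlated between -0.021 and 0.25. Among single genes, MCM2 ran from -0.42 to 0.24 and E2F2 from -0.34 to 0.47 in the combination against venetoclax with 1 library left out, and the positive values were without venetoclax replicate 2. DESeq2's size factors moved the median of all genes by less than 0.1 log2 units in each comparison. The E2F core of 7 letters was in 30 of 43 windows (69.8%) and in 20.3% of the promoters of tested genes, against 20 windows (46.5%) and 5.4% for 8 letters.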
